A study of Homo sapiens with 4 samples.

Results

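Genes for the subunits of the 5 oxidative phosphorylation complexes were examined in GIST-T1 cells after transfection of a miR-335 mimic. Members were the genes whose names on the array begin with the symbols of complex I (NDUFA, NDUFB, NDUFC, NDUFS or NDUFV with a number), complex II (SDHA to SDHD), complex III (UQCR), complex IV (COX4 to COX8) or complex V (ATP5). Of the 36337 gene names on the array, 86 met this rule with 113 probes, and 1 pseudogene was left out. The name rule also took in COX4NB, ATP5S and ATP5SL, which are not subunits, so that 83 subunits remained. By name these were 38 genes of complex I, 4 of complex II, 8 of complex III, 17 of complex IV and 16 of complex V.

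The complexes sit in the inner mitochondrial membrane. Complexes I and II take electrons from NADH and succinate, complex III passes them to cytochrome c, and complex IV gives them to oxygen. Proton pumping by complexes I, III and IV drives complex V, the ATP synthase. Most subunits are encoded in the nucleus and a small set by mitochondrial DNA, so that both genomes must be expressed for the complexes to form. In GIST, loss of complex II (succinate dehydrogenase) marks a subset of tumors that carry wild-type KIT and PDGFRA.

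GIST-T1 is an established line of human cells that was derived from a gastrointestinal stromal tumor, or GIST. The cells were electroporated with 100 pmol of the miR-335 mimic, a synthetic double-stranded RNA that stands in for the processed microRNA, or of the negative control RNA, and total RNA was taken 48 h later. Each group had 2 arrays with 1 color, and no untransfected cells were included. The labels number the replicates without saying whether they came from separate cultures, and the p-values then measure the spread between these samples, which may be technical. The mimic samples carry a second name in their description that refers to a miR-34a mimic, whereas their titles and the transfection label give miR-335. PDGFRA, which the study examined as a miR-34a target, differed by -0.08 on the log2 scale (limma adjusted p 0.354). Predicted miR-335 targets that the study picked from these arrays, and which are therefore not independent evidence of the label, were also looked up. ZMPSTE24 differed by -0.86 (limma adjusted p 0.0314), EIF5A2 by -0.84 (adjusted p 0.0351) and MAT2B by -0.66 (adjusted p 0.0538, not called).

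The microRNA is shown with its seed, bases 2 to 8, in capitals. RefSeq places it on the plus strand at chr7:130496126-130496148 (GRCh38.p14). Below it is part of the probe of COX8A, a small subunit of complex IV, with the match to seed bases 2 to 7 followed by A in capitals.
hsa-miR-335-5p: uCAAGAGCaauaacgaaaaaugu
COX8A: gcaatcatgacCTCTTGAtgtctccatggt

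The full match to the seed (GCTCTTG) was found in 100 of the 20328 tested probes (0.492%) and in 0 of the 109 subunit probes. The shorter match (CTCTTGA) was found in 92 tested probes (0.453%) and in 1 subunit probe, that of COX8A at chr11:63743901-63743960 (hg19). Probes have 60 bases and cover little of a transcript, so a gene without a match in its probe may have one elsewhere. On this probe the normalized log2 signal was 8.29 and 8.27 with the mimic and 8.35 and 8.34 in the control. COX8A differed by -0.07 ± 0.04 (SE), which did not pass in limma (adjusted p 0.332).

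Values are normalized log2 signals, that is, the log2 processed intensity minus the 75th percentile of its array, and differences are mimic minus control. A gene is represented by its brightest tested probe. Of the 50599 probes, 40.3% to 41.9% per array were well above background, and all 4 arrays lay on 1 slide and were read in 1 scan. The controls and the mimics took neighboring places on the slide, so that place and group cannot be told apart. All 6 markers of GIST (KIT, ANO1, ETV1, PRKCQ, PDGFRA and CD34) were well above background on 4 arrays. Of the markers of other cell types, CDH1, PTPRC, PECAM1, VWF and MYH11 were well above background on 0 arrays, CDH5 on 2, and EPCAM, CD14 and DES on 4. The external spike-in probes were 0.18 brighter on the mimic arrays, and scaling to them moved the median of all tested probes to -0.20. Directions below are therefore relative to the bulk of cellular RNA. Fewer cells with a transcript and less of it per cell cannot be told apart in these samples.

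Of the 83 subunits, 79 were tested, and the brightest probe of all 79 was well above background on 4 arrays. A further probe of COX6B2, ATP5L2 and NDUFS7 was well above background on 0 arrays, and another of UQCRB on 2. The tested ATP5L2 probe read 4.69 on both mimic arrays and 4.75 and 4.73 in the control. Its other probe read -5.12 and -4.44 with the mimic and -4.99 and -5.23 in the control. The 4 subunits not tested, COX4I2, COX6A2, COX7B2 and COX8C, are isoforms for lung, muscle or testis. They were well above background on 0 arrays. Among the 79 the differences were small. The median was -0.03, against -0.02 over all 15454 tested genes, and 50 subunits (63.3%) were below 0, against 55.3% of all tested genes. With spike-in scaling all 79 were below 0, with a median of -0.21 beside -0.20 for all tested probes.

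In limma, 1 of the 79 subunits (1.27%) passed the adjusted threshold as lower, namely COX6B2, against 1.34% of all tested genes. None passed as higher (0 of 79, against 1.42% of all tested genes). At an unadjusted p below 0.05, 3 subunits were lower (3.80%, against 14.6%) and 0 were higher (against 11.3%). None differed by more than 1.5-fold, whereas 1.5% of all tested genes were lower and 2.17% higher by this measure. The groups did not overlap in 48 of the 79 (60.8%), near the 61.3% of all tested genes. Both mimic arrays were lower in 36 of the 79 (45.6%, against 34.5%) and higher in 12 (15.2%, against 26.8%).

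The differences of the subunits were small beside those of all tested genes. Without regard to sign, the median difference was 0.04 for the subunits and 0.10 for all tested genes. Only 6 of the 79 (7.59%) differed by more than 0.1, against 49.3% of all tested genes, and 1 (1.27%) by more than 0.2, against 23.7%. Their replicates were closer as well: the median size of the difference between the control arrays was 0.03 for the subunits and 0.06 for all tested genes. The median limma standard error was 0.04 and 0.05. Genes of like brightness were not compared.

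**Figure D1:**
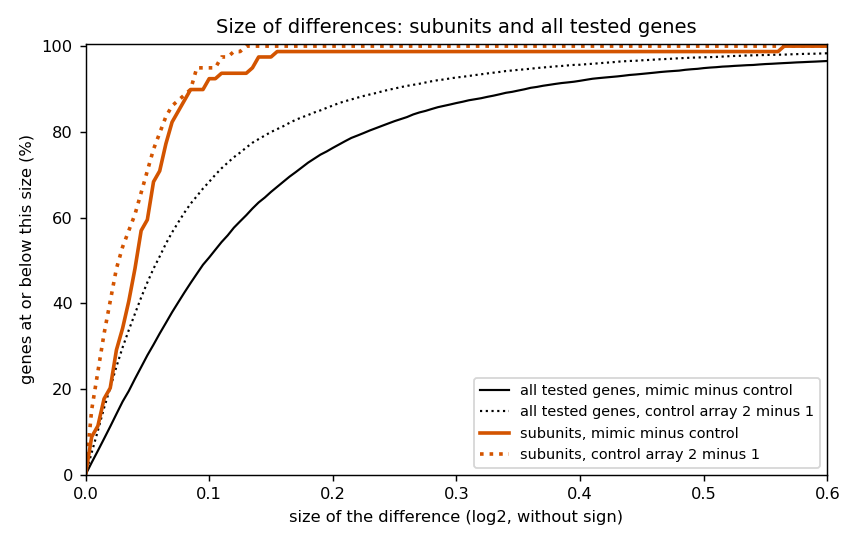
Cumulative share of genes (percent, vertical axis) by the size of their difference on the log2 scale (horizontal axis, sign removed). Solid lines show mimic minus control and dotted lines control array 2 minus array 1, for the 79 subunits (orange) and all 15454 tested genes (black). Solid lines compare means of 2 arrays and dotted lines single arrays, so solid and dotted lines are not like for like. The orange lines lie above the black ones, since 7.59% of subunits and 49.3% of all tested genes differed by more than 0.1.

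Complex I, the NADH dehydrogenase, had 38 genes by name, all of them tested, and 0 were called. Its median was -0.0019, which became 0.02 with scaling to detected probes and -0.19 with spike-in scaling. It had 20 genes below 0 and 18 above. The 31 genes counted as accessory by name ranged from -0.10 to 0.14 with a median of -0.0025. They include NDUFA4 and NDUFA4L2, and the 0.14 is that of NDUFA4L2. Next highest was NDUFB7, at 0.13 ± 0.05 (SE, limma adjusted p 0.198), with separate groups.

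NDUFB5, an accessory subunit of the membrane arm, had the lowest value of complex I. Its signal was 4.99 and 5.03 with the mimic and 5.08 and 5.14 in the control, so that the groups were separate. The difference was -0.10 ± 0.04 (SE, limma adjusted p 0.268). Its other, dimmer probe was at -0.0013, with overlapping groups. At the other end was NDUFA4L2, a hypoxia-induced relative of NDUFA4, with -1.75 and -1.84 with the mimic and -1.88 and -1.99 in the control. Both mimic arrays were above both control arrays, and the difference was 0.14 ± 0.06 (SE, limma adjusted p 0.276), or -0.05 with spike-in scaling. NDUFA4 itself, now counted as a subunit of complex IV, differed by 0.00042, and its mimic arrays (5.87 and 5.96) lay on either side of its control arrays (5.91 and 5.92). Of the subunits whose probes shared a sign, NDUFA10 had the widest range, from 0.05 on its brightest probe to 0.34 on its dimmest.

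Complex II links the citric acid cycle to the respiratory chain, and all 4 of its genes were tested with 0 called. The median was -0.05, and 3 of the 4 genes were below 0. SDHA, the flavoprotein subunit, had 5.48 and 5.50 with the mimic and 5.47 and 5.50 in the control, a difference of 0.0014 ± 0.04 (SE). The mimic and control arrays overlapped. Its 4 probes ranged from -0.09 to 0.02, and 3 of them also list accessions of the SDHA pseudogenes, with which they may share signal.

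SDHB, the iron-sulfur subunit whose protein is stained to find succinate dehydrogenase-deficient GIST, had 4.87 and 4.85 with the mimic and 4.90 and 4.88 in the control. The groups were separate by a narrow margin, with a difference of -0.04 ± 0.04 (SE, limma adjusted p 0.577). SDHC, a membrane anchor, had 3.99 and 4.03 with the mimic and 4.08 and 4.06 in the control, and differed by -0.06 ± 0.04 (SE, limma adjusted p 0.390). Its dimmer probes differed by -0.14 and -0.22 (limma adjusted p 0.146 and 0.217), so that its 3 probes had the same sign. SDHD, the other anchor, had 2.67 and 2.77 with the mimic and 2.83 and 2.78 in the control (-0.08 ± 0.06 SE, limma adjusted p 0.424). It was the only subunit whose probes differed in sign by more than 0.2, from -0.11 to 0.10. Its probes lie close together on chromosome 11 (from 111965707 to 111965925, hg19), 2 of them overlapping. All 4 transcripts were thus well above background in both groups.

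Complex III, the cytochrome bc1 complex, had 8 genes tested and 0 called, with a median of -0.0035 (0.02 with scaling to detected probes and -0.19 with spike-in scaling). UQCRFS1, the Rieske iron-sulfur protein, was lowest with 6.97 and 7.06 with the mimic and 7.11 and 7.06 in the control (-0.07 ± 0.05 SE, limma adjusted p 0.492). UQCRC1, a core protein, was highest with a difference of 0.02 ± 0.05 (SE, limma adjusted p 0.794). Both genes overlapped between groups.

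Complex V, the ATP synthase, had 16 genes tested and 0 called, and 11 of them were below 0 with a median of -0.04. The 5 genes of the catalytic F1 part (ATP5A1, ATP5B, ATP5C1, ATP5D and ATP5E) ranged from -0.07 to 0.07. ATP5A1, which encodes the alpha subunit, was highest, with 6.29 and 6.33 with the mimic and 6.23 and 6.25 in the control (0.07 ± 0.04 SE, limma adjusted p 0.378). ATP5F1, a subunit of the peripheral stalk, was lowest, with 4.96 on both mimic arrays and 5.09 and 5.03 in the control (-0.10 ± 0.04 SE, limma adjusted p 0.249). The groups were separate for both genes, in opposite directions. ATP5G1, ATP5G2 and ATP5G3, which encode the same mature c subunit of the rotor, differed by 0.04, 0.02 and -0.03, with limma adjusted p from 0.51 to 0.75.

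**Figure D2:**
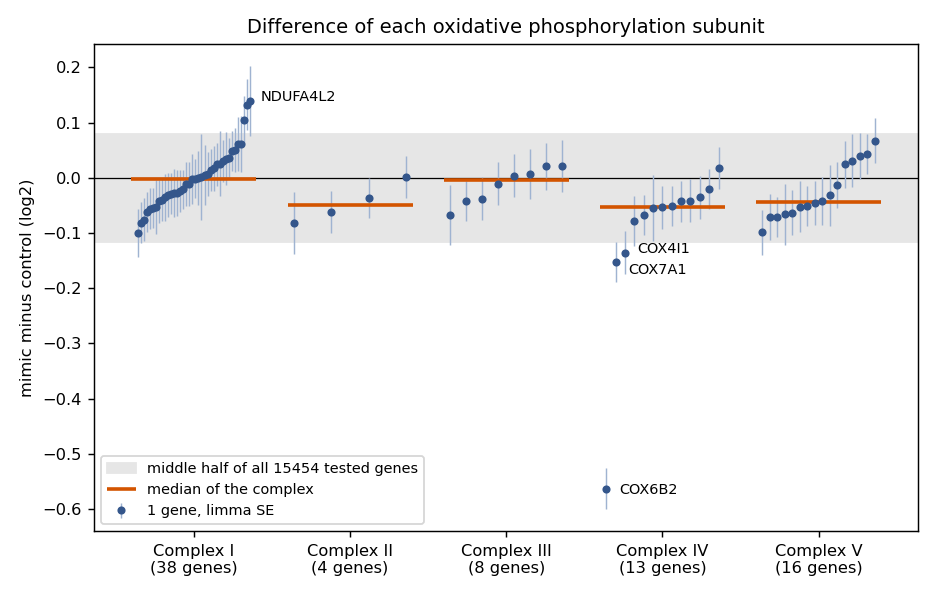
Mimic minus control on the log2 scale (vertical axis) for each of the 79 tested subunits, grouped by complex (horizontal axis) and sorted within it; bars are limma standard errors, orange lines the medians of the complexes, and the gray band holds the middle 50% of all 15454 tested genes. COX6B2, at -0.56, lies far from the others, which range from -0.15 to 0.14.

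Complex IV, cytochrome c oxidase, had 13 genes tested, all of them nuclear genes with COX names. The 13 leave out NDUFA4 (0.00042) and its relative NDUFA4L2 (0.14), counted above with complex I by name. They also leave out the mitochondrially encoded COX1 (0.24), COX2 (-0.17) and COX3 (-0.06). Both mimic arrays were above both control arrays for NDUFA4L2 and COX1 and below them for COX2 and COX3, while NDUFA4 overlapped. The median of the 13 was -0.05, a change of -3.61% in signal, and 12 of the 13 genes were below 0. In 11 of the 13 (84.6%) both mimic arrays were below both control arrays, against 34.5% of all tested genes. In 0 of the 13 were they above. Without COX6B2 the groups were separate in 10 of 12 genes. Both mimic arrays were also below both control arrays in 3 of 4 genes of complex II and 8 of 16 of complex V. In complexes I and III this held for 12 of 38 and 2 of 8 genes. They were above in 9 genes of complex I, 3 of complex V and 0 of complexes II and III. The median of the 13 was -0.03 with scaling to detected probes, -0.07 with normexp background correction and -0.24 with spike-in scaling. Over all tested probes these medians were 0.0068, -0.0062 and -0.20. The sign with spike-in scaling is thus shared with the bulk of the probes. Without COX6B2 the median of complex IV was -0.05 over 12 genes. When each mimic array was set against each control array (4 pairings, which share arrays and are not independent), the median lay between -0.06 and -0.04. Between replicate arrays it was 0.0062 in the mimic and -0.0018 in the control group. For most of these genes the difference was no larger than 2 standard errors, and COX6B2 alone was called.

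COX7A1, the isoform typical of heart and skeletal muscle, had 5.89 and 5.88 with the mimic and 6.03 and 6.04 in the control. COX4I1, the ubiquitous form of the COX4 subunit, had 5.90 on both mimic arrays and 6.06 and 6.02 in the control. In both genes the groups were separate by more than the spread within either group. The differences were -0.15 ± 0.04 (SE, unadjusted p 0.0165, limma adjusted p 0.124) for COX7A1 and -0.14 ± 0.04 (SE, unadjusted p 0.0294, limma adjusted p 0.156) for COX4I1. Neither passed the threshold, although both did with an intensity trend in eBayes (adjusted p 0.00775 and 0.0158).

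The other ubiquitous forms that have a tissue isoform had values from -0.08 to -0.02. COX7B differed by -0.08 ± 0.04 (SE, limma adjusted p 0.358) and COX8A by -0.07, as given above. COX6A1 differed by -0.05 ± 0.04 (SE, limma adjusted p 0.453), COX7A2 by -0.06 ± 0.06 (SE, limma adjusted p 0.599) and COX6B1 by -0.02 ± 0.04 (SE, limma adjusted p 0.748). COX5A, which lies on the matrix side of the complex, was the only gene above 0, at 0.02 ± 0.04 (SE, limma adjusted p 0.793), and its other probe was at -0.02.

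**Figure D3:**
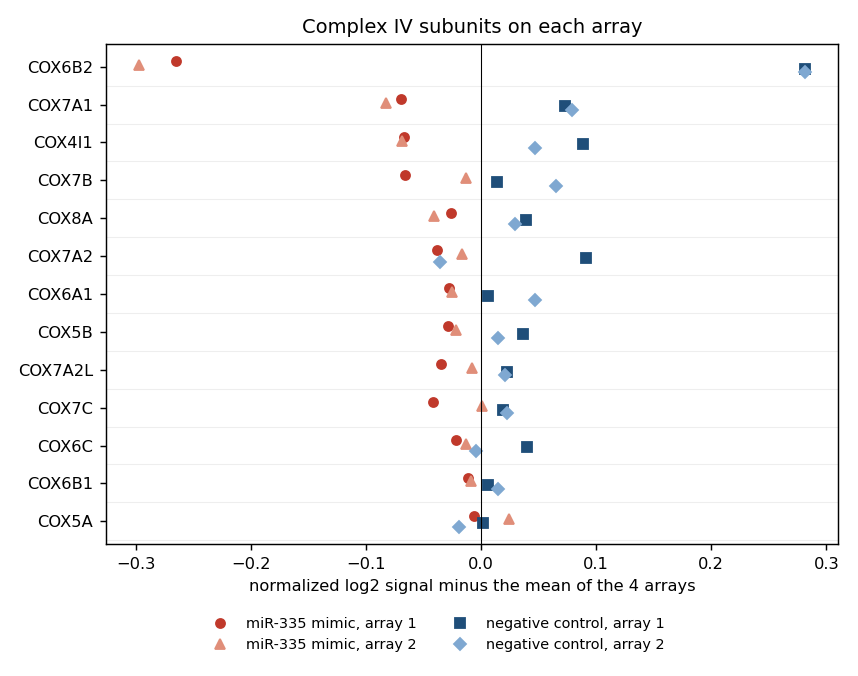
Normalized log2 signal of the 13 tested complex IV subunits on each of the 4 arrays (red, miR-335 mimic; blue, negative control), as the distance from the gene's mean over the 4 arrays (horizontal axis). The mimic arrays lie left of the control arrays in 11 of the 13 genes, and COX6B2 shows by far the widest gap.

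COX6B2, the testis isoform of the COX6B subunit, was the only subunit called. Its tested probe had 4.83 and 4.79 with the mimic and 5.37 on both control arrays. The groups were far apart compared with their replicates, and the difference was -0.56 ± 0.04 (SE, limma adjusted p 0.0351). Under all alternatives it stayed between -0.75 and -0.54, with adjusted p from 3.09e-05 (intensity trend in eBayes) to 0.417 (no filter on dim probes). The call was lost without any 1 of the 4 arrays (adjusted p 0.144 to 0.196), with no filter on dim probes, with the methods' t-test and with the replicate number as a block.

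The other COX6B2 probe was well above background on 0 arrays. The file entry of the tested probe also lists transcripts of MXRA7, CAMLG and C3orf33. On their own probes these genes differed by less. The 4 MXRA7 probes lay between -0.17 and -0.09, the CAMLG probe at -0.01 and the C3orf33 probe at -0.07, and 0 of the 6 were called (limma).

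The bases of the tested probe were therefore compared with those of all other probes, a search chosen after its value was known. In all, 7 other probes shared a run of 15 or more bases with the COX6B2 probe on the same strand, and all 7 were lower with the mimic. They ranged from -0.92 to -0.36 with a median of -0.48, and 5 of the 7 were called in limma, against 1.15% of all tested probes. They are listed under other entries, among them FAM118A at -0.57 (limma adjusted p 0.0348), KIAA1875 at -0.48 (adjusted p 0.0367) and KANK3 at -0.36 (adjusted p 0.0680). The other 4 have no gene name. Whether these probes read the same transcripts was not tested, so their calls may not be independent.

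Probes with the letters of the opposite strand went the other way. Of 11 such probes 10 were tested, 9 of them were higher with the mimic, and the median was 0.36. In limma 5 of the 10 were called higher, against 1.47% of all tested probes, and 0 were called lower. Among those called were GCLM at 0.46 (adjusted p 0.0407), KRBA2 at 0.48 (adjusted p 0.0392) and IKBKB at 0.39 (adjusted p 0.0440), and RINL at -0.45 (adjusted p 0.162) was the exception. With runs of 12 bases, 16 of 17 same-strand probes were lower (10 called) and 22 of 23 other-strand probes were higher (12 called). With runs of 18, all 6 same-strand probes were lower and all 8 other-strand probes higher, 5 of them called on either side. The value of the COX6B2 probe thus lay within the range of the same-strand probes that carry its letters but stand for other entries, and how much of it comes from COX6B2 transcripts was not tested.

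**Figure D4:**
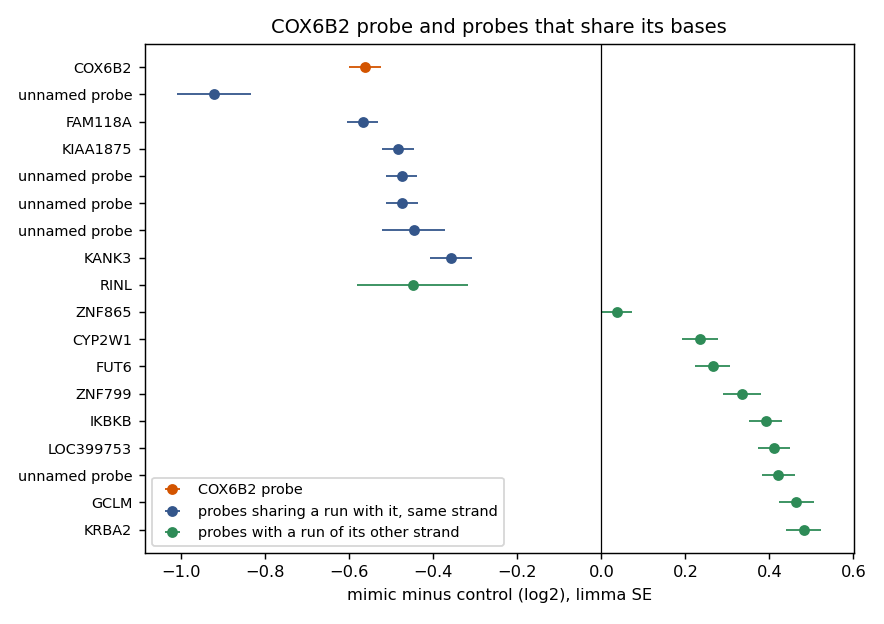
Mimic minus control on the log2 scale (horizontal axis, bars are limma standard errors) for the tested COX6B2 probe (orange), the 7 probes that share a run of 15 or more bases with it (blue) and the 10 tested probes with such a run of its other strand (green). All 7 blue points lie below 0, and 9 of the 10 green points lie above it.

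The remaining genes of the pathway showed no call in limma with standard eBayes. With an intensity trend in eBayes, which called 9.64% of all tested genes lower and 7.0% higher, some were called. These were 6 of the 13 mitochondrially encoded subunits as lower (COX2 and ATP6 among them, adjusted p 0.00596 and 0.0190) and 1, COX1, as higher (0.00101). Of the 42 tested assembly factors it called 1 lower (TIMMDC1, adjusted p 0.00388) and 2 higher (BCS1L, 0.0177, among them), of the 16 regulators 1 lower (YY1, 0.0261) and of the 11 citric acid cycle genes 1 higher (IDH3B, 0.0179).

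The subunits encoded by mitochondrial DNA had all 13 genes tested, with 0 called in limma. Their median was -0.06, and 8 of the 13 were below 0. At an unadjusted p below 0.05, 5 of the 13 were lower and 1 was higher (against 14.6% and 11.3% of all tested genes). COX2, a catalytic subunit of complex IV, had 7.34 and 7.35 with the mimic and 7.50 and 7.52 in the control (-0.17 ± 0.04 SE, limma adjusted p 0.116). ATP6, the proton channel subunit of complex V, had 6.89 and 6.93 against 7.04 on both control arrays (-0.13 ± 0.04 SE, limma adjusted p 0.167). Both were separate between the groups.

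COX1, the other catalytic subunit of complex IV, had the opposite sign and was not called. Its signal was 6.04 and 6.05 with the mimic and 5.81 and 5.80 in the control, a difference of 0.24 ± 0.04 (SE, unadjusted p 0.00393, limma adjusted p 0.0736). The file places this probe on chromosome 1, from 567567 to 567626 (hg19), so that it may also measure a nuclear copy of mitochondrial DNA. It was called with normexp background correction (0.22, adjusted p 0.0395), as with the intensity trend.

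**Figure D5:**
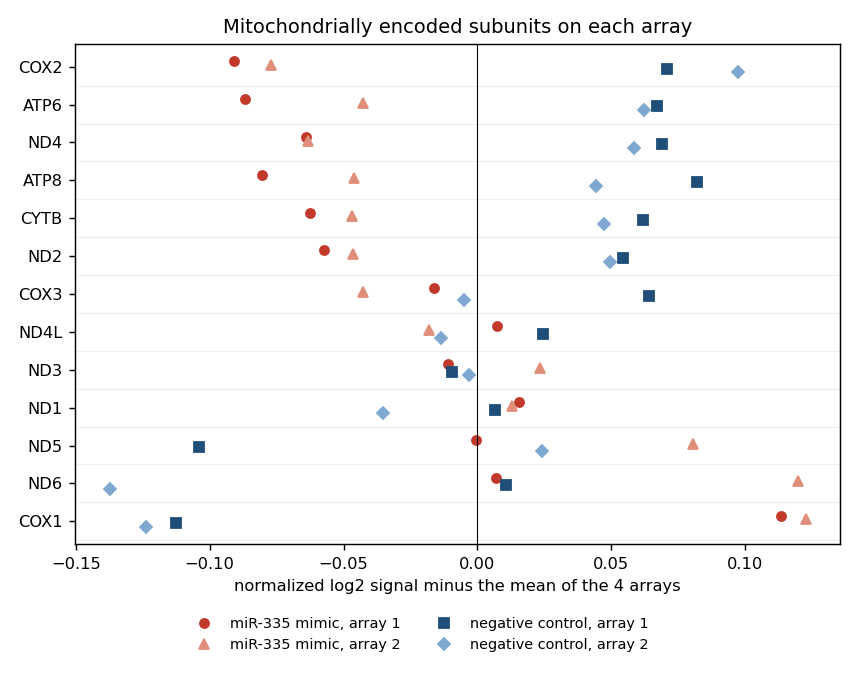
Normalized log2 signal of the 13 mitochondrially encoded subunits on each of the 4 arrays (red, miR-335 mimic; blue, negative control), as the distance from the gene's mean over the 4 arrays (horizontal axis). COX2 and ATP6 lie at the top with the mimic arrays to the left, and COX1 lies at the bottom with the mimic arrays to the right.

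The 6 nuclear genes of the pathway with other names (ATPIF1, C14orf2, CYC1, CYCS, NDUFAB1 and USMG5) ranged from -0.04 to 0.05, with 0 called. ATPIF1, the inhibitor of the ATP synthase, differed by 0.05 with overlapping groups, and its dimmer probe by -0.04 with separate groups. NDUFAB1, the acyl carrier protein of complex I, differed by 0.04, and USMG5, a small subunit of complex V, by -0.04. Of the 44 genes for assembly factors 42 were tested, and 0 were called, with a median of -0.0023 and 22 genes below 0. TIMMDC1, which helps build the membrane arm of complex I, had 4.37 and 4.43 with the mimic and 4.61 and 4.63 in the control (-0.22 ± 0.04 SE, limma adjusted p 0.0964). BCS1L, which inserts the Rieske protein into complex III, had 2.87 and 2.90 against 2.71 and 2.58 (0.24 ± 0.06 SE, limma adjusted p 0.140). COX15, needed for heme a synthesis, differed by -0.20 ± 0.13 (SE, limma adjusted p 0.397), and its mimic arrays, at -1.07 and -0.74, were far apart. Without the first mimic array the difference was -0.04 and without the second -0.36, and its other probe was at -0.04.

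Of 12 genes of the citric acid cycle 11 were tested with 0 called and a median of -0.02. SUCLG2, a subunit of succinyl-CoA ligase, differed by -0.16 ± 0.05 (SE, limma adjusted p 0.154), IDH3B, of isocitrate dehydrogenase, by 0.15 ± 0.04 (SE, limma adjusted p 0.133), and DLST, of the oxoglutarate dehydrogenase complex, by -0.09 ± 0.04 (SE, limma adjusted p 0.255). The 3 names of the rule that are not subunits differed by -0.02 (COX4NB), 0.08 (ATP5SL) and 0.13 (ATP5S), and 0 were called.

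The 16 genes for regulators of mitochondrial transcription and biogenesis were all tested, with 0 called, a median of -0.05 and 11 below 0. PPARGC1A, the coactivator PGC-1alpha, had -1.96 and -1.91 with the mimic and -1.66 and -1.30 in the control. The control arrays were far apart, and the difference of -0.46 ± 0.14 (SE) did not pass in limma (unadjusted p 0.0357, adjusted p 0.169). PPARGC1B, its homolog, differed by -0.18 ± 0.07 (SE, adjusted p 0.254), and its dimmer probe by -0.02. YY1, a transcription factor that acts with PGC-1alpha, had 4.40 and 4.36 with the mimic and 4.50 and 4.51 in the control (-0.12 ± 0.04 SE, limma adjusted p 0.171). NRF1 and GABPA, the nuclear respiratory factors, differed by 0.08 and -0.01.

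Promoters from RefSeq (GRCh38.p14; 250 bases before to 50 after a start, 300 in all) were searched on both strands for short parts of the sites of these factors. The letters were CCGGAAG for GABPA, GCGCATG for NRF1 and AAGATGG for YY1. The GABPA and YY1 letters can share the bases AAG, and the NRF1 letters can overlap their own reverse complement. The windows of 3 genes, ATP5I, ATP5J and SDHB, hold all 3, and those of ATP5J, which encodes a coupling subunit of complex V, and SDHB are shown. The YY1 letters of SDHB lie after the start and are not printed. The 250 bases before the start are given, at chr21:25735055-25735304 and chr1:17054033-17054282, both on the minus strand, with matches in capitals.
ATP5J: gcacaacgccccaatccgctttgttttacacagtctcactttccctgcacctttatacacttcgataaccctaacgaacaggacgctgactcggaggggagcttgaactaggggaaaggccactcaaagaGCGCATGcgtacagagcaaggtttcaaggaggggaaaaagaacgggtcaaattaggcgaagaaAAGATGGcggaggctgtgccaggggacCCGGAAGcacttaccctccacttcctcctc
SDHB: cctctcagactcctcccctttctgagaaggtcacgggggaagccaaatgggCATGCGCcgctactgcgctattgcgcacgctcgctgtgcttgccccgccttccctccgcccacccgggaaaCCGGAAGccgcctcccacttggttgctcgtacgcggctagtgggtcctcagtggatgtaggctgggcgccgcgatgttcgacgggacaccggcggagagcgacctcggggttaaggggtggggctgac

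Windows were found for 68 subunits (82 windows). The GABPA letters were in 25.6% of these windows and in 12.8% of windows of all protein-coding genes, the NRF1 letters in 20.7% and 5.26%, and the YY1 letters in 23.2% and 6.04%. At least 1 of the 3 was in 51.2% of subunit windows and 21.6% of those of protein-coding genes. By gene they were found in 17 of 33 for complex I, 2 of 3 for complex II, 5 of 7 for complex III, 6 of 14 for complex IV and 9 of 11 for complex V. COX6B2 had none of them.

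The 39 tested genes with at least 1 match had a median of -0.03 and ranged from -0.14 to 0.13, and the 26 without, COX6B2 among them, had a median of 0.0026. The 18 genes with the YY1 letters had a median of -0.04, against 0.00042 for the 47 without. The 20 with the GABPA letters had a median of -0.04, against -0.0012 for the 45 without, and the 15 with the NRF1 letters one of -0.03, against -0.01 for the 50 without. These medians were not tested against each other.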

How the data were processed

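Labeled RNA was made from 100 ng of total RNA and put on human Agilent arrays with 1 dye. The deposited files hold spot intensity values from Feature Extraction (version 10.7 in the submitters' processing notes, 10.7.3.1 per the file headers), which the authors left without normalization between arrays. The study analyzed them in GeneSpring. The whole-series table the authors deposited holds the same intensity, rounded, and 0 of its columns lacked a sample.

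Here spots flagged as outliers were left out, spots of a probe averaged on the log2 scale, and the 75th percentile of each array subtracted. Probes were tested (20328 of 50599) when both arrays of 1 or both groups had them well above background. Mimic and control were compared by lmFit and eBayes of limma (version 3.58.1; R version 4.3.3) with no covariates, and p-values were adjusted over all tested probes by the Benjamini-Hochberg method (threshold 0.05). Simulated data with known changes were used to test this step. With 2 arrays against 2, the smallest two-sided p of an exact permutation test is 0.333, so none was used for single genes. The number of arrays limits the precision.

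Members and gene lists were chosen with earlier results of these data known. Named were called genes, the lowest and highest gene of each complex, SDHA to SDHD, tissue isoforms, subunits whose probes differed in sign by over 0.2 or held a seed match, and up to 3 genes of a list by size. Gene names and probe coordinates are those of the files (hg19), and all 86 member names matched RefSeq. Alternatives were quantile normalization, scaling to detected or spike-in probes, normexp background correction (offset 50), the series table, other filters on dim probes, other variance estimates, the methods' t-test, the replicate number as a block, each array left out and the mean over a gene's probes. A gene group and a probe sequence are not reported here. Figures were drawn with matplotlib 3.10.9.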

Additional observations from a re-analysis of the deposited data

How the results depend on the processing

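The direction of small differences depended on the scaling. For all subunits the median of -0.027 became -0.0067 with scaling to detected probes and -0.21 with spike-in scaling. By complex these were 0.019 and -0.19 (I), -0.028 and -0.24 (II), 0.017 and -0.19 (III), -0.032 and -0.24 (IV), -0.023 and -0.23 (V), and normexp gave -0.073 for complex IV. Without 1 array in turn the medians ranged from -0.040 to -0.013 for all subunits, -0.021 to 0.0015 (I), -0.059 to -0.037 (II), -0.030 to 0.0013 (III), -0.060 to -0.043 (IV), -0.051 to -0.017 (V). Quantile normalization and the series table moved no median by more than the replicate spread.

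The count of 1 subunit called lower became 65 with spike-in scaling, which moved the median of all tested probes to -0.20 as well. It became 3 of 79 with an intensity trend in eBayes, which called 9.64% of all tested genes lower. With no filter on dim probes, the methods' t-test (12 at an unadjusted p below 0.05) or the replicate block (2 unadjusted) it became 0. It was also 0 with COX6B2 left out (chosen after seeing the data). The shares of all tested genes called with spike-in scaling, the t-test or the replicate block are not given here. The count called higher was 0 throughout. Over 1.5-fold there was 1 with spike-in scaling and 2 with no filter, against 0. The labels do not say whether the replicate numbers pair the samples. The replicate differences of the groups correlated at 0.03 across probes. This shows no strong shift shared by arrays of the same number, but it cannot show how the cultures were made. The replicate block changed only the call of COX6B2 (limma adjusted p 0.125).

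Genes close to 0 changed sign without being called, except where stated. With quantile normalization the values were NDUFA4 -0.0095 and SDHA -0.0065, with scaling to detected probes COX6B1 0.00031, with normexp ATP5G2 -0.010, NDUFA4 -0.0061, SDHA -0.014, ATPIF1 -0.011, and with the mean over all probes COX5A -0.00034 and SDHA -0.022. With spike-in scaling 11 turned below 0 (ATP5A1 -0.12, ATP5G1 -0.14, ATP5G2 -0.16, COX5A -0.17, NDUFA4 -0.19, NDUFA4L2 -0.047, SDHA -0.18, UQCRC1 -0.16, ATPIF1 -0.14, NDUFAB1 -0.14, IDH3B -0.039), of which ATP5G1, ATP5G2, COX5A, NDUFA4 and SDHA were called, and another 22 named genes were called lower. An intensity trend in eBayes added calls for 9 named genes and normexp for 1, all in their own direction. Without 1 array in turn 7 changed sign, with ranges of ATP5G2 -0.0050 to 0.054, ATP5G3 -0.086 to 0.023, COX7A2 -0.12 to 0.0082, NDUFA4 -0.044 to 0.045, SDHA -0.013 to 0.016, UQCRC1 -0.0088 to 0.053, ATPIF1 -0.0036 to 0.097. The causes were not tested.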
